A study of Drosophila melanogaster with 23 samples.

Results

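The cytosolic ribosome is the particle that translates every nuclear-encoded mRNA, and each ribosome carries a fixed set of proteins in its large (RpL) and small (RpS) subunits. In Drosophila nearly every ribosomal protein is encoded by a single gene that all cells express, and flies with only a single working copy of many of these genes are Minute: they develop slowly and have thin bristles. The mRNAs are short, abundant and usually produced in step, so their level is often used as a reading of a tissue's growth state, and several of them serve as reference genes in quantitative PCR. The genes described here are those with a FlyBase symbol of RpL or RpS followed by a digit, or starting with RpLP (the acidic stalk proteins), together with sta, the gene of ribosomal protein SA. The rule uses names only. It found 93 genes, 54 with a large-subunit and 39 with a small-subunit symbol, and 88 of them have an identifier in the 5 tables of wild type and single heterozygotes, which list 17559 genes. Genes were tested when 4 or more of the 20 libraries reached 10 normalized counts, and 80 of the 93 met this among 9588 genes, 48 of the large and 32 of the small subunit.

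Adult heads of flies 5 to 7 days after pupation were profiled by sequencing the 3′ ends of mRNAs. There were 4 libraries each of wild type (WT, the w1118 strain) and of flies heterozygous for a mutation in 1 autism-associated gene ortholog: ASH1L/+ (fly ash1, a trithorax-group chromatin protein), WDFY3/+ (bchs, an autophagy scaffold), CHD2/+ (Chd1) and CHD8/+ (kis), the last 2 being chromatin remodelers. The paper places its stocks on the w1118 background, in its sentence on the deficiency stocks. A further 3 libraries came from the double heterozygote CHD8/+, PP2R5D/+, which also carries a mutation of wrd, a regulatory subunit of protein phosphatase 2A. They too are labelled as adult heads of the same age, but the extraction protocol does not name this genotype, and whether its tissue was collected and its libraries prepared along with the others is not given in the sources used here. Values are counts normalized by the authors, the 20 libraries on one scale and the double heterozygote on its own, so the latter is compared only by shares. Fly sex, the number of heads pooled in a library and the batch of each library were not given in the sources used here, and the wild type and mutant stocks may differ elsewhere in the genome.

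The library totals of the normalized counts ranged from 3.98e+06 to 8.56e+06, the highest being ASH1L/+ replicate 3. These totals follow the scaling and are not the sequencing depth, which was not recoverable from the files. Of the mutated genes, Chd1 ran from 99.8 to 204 (median 134) in CHD2/+ and from 167 to 402 (median 300.2) in WT, ranges that overlapped. For ash1, bchs and kis the ranges of the matching heterozygote and WT overlapped over most of their width. The tissue markers fit adult heads: the rhodopsin gene ninaE had a median of 23338 and the neuronal gene nSyb of 2508, while the egg-shell genes Vm26Aa and Cp36 were listed at 0 in 18 and 15 of the 20 libraries. In a head extract, a difference in the share of cells that make many ribosomes and a difference in ribosomal protein mRNA per cell cannot be told apart.

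The ribosomal protein genes together made up 11.8% ± 3.01 (SD, n = 20) of all normalized counts, and the share moved more with the replicate number of a library than with its genotype. In WT the share was 9.11%, 10.8%, 12.2% and 11.2% in replicates 1 to 4. In ASH1L/+ it was 5.96%, 11.0%, 15.4% and 12.1%, and in WDFY3/+ it was 6.92%, 11.0%, 16.8% and 12.7%, so replicate 1 was the lowest and replicate 3 the highest in all 3 of these genotypes. CHD2/+ had 14.6%, 11.7%, 17.6% and 14.6%, and CHD8/+ had 8.82%, 10.5%, 9.73% and 13.0%. CHD2/+ replicate 1 was therefore higher, and CHD8/+ replicate 3 lower, than the other libraries of their numbers. The mean over 4 libraries (± SD) was 10.8% ± 1.29 for WT and 11.1% ± 3.90 for ASH1L/+, and for WDFY3/+, CHD2/+ and CHD8/+ 11.9% ± 4.09, 14.6% ± 2.43 and 10.5% ± 1.80. All 5 groups overlapped. By number, the median of the 5 libraries was 8.82% for replicate 1 (range 5.96% to 14.6%), 11.0% for replicate 2 (10.5% to 11.7%), 15.4% for replicate 3 (9.73% to 17.6%) and 12.7% for replicate 4 (11.2% to 14.6%).

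**Figure D1:**
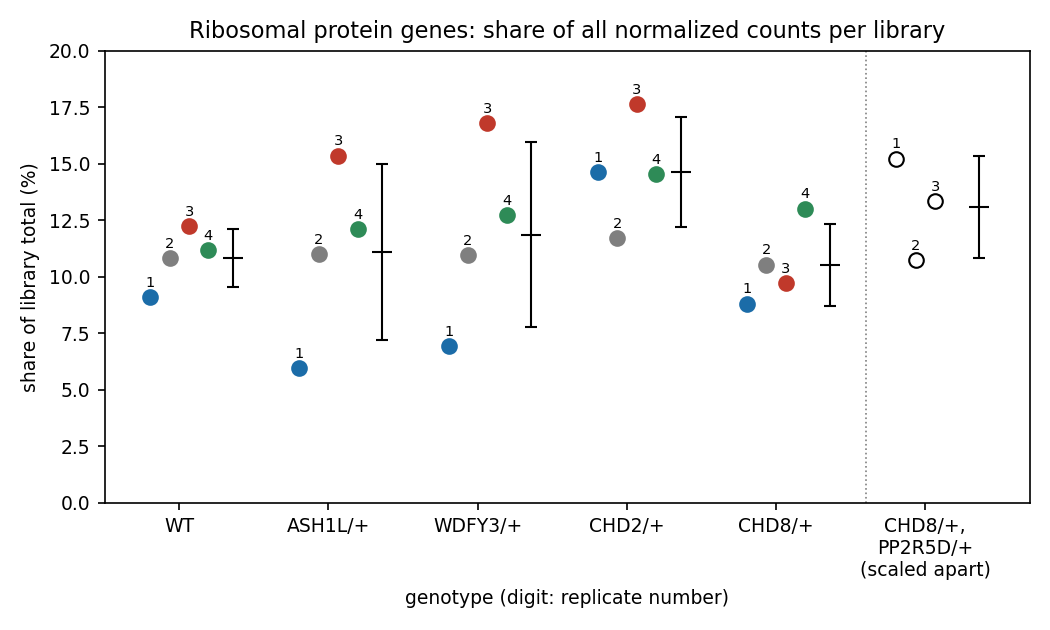
Share of all normalized counts in ribosomal protein genes (vertical axis, percent) for each library, by genotype; the digit and color give the replicate number, and the bar to the right of each group is the mean ± SD (4 libraries, 3 for the double heterozygote, whose table was scaled apart). Replicate 1 was lowest in WT, ASH1L/+, WDFY3/+ and CHD8/+ (5.96% to 9.11%) and replicate 3 highest in WT, ASH1L/+, WDFY3/+ and CHD2/+ (12.2% to 17.6%). The sums of the double heterozygote also include RpL19, RpL27A, RpL31 and RpS10b.

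The large and small subunits moved together. The large-subunit genes held 52.3% to 58.7% of the ribosomal protein counts in the 20 libraries, and the highest value again came from ASH1L/+ replicate 3. Per kilobase of transcript, the mean level of the tested genes ran from 35.1 normalized counts for RpS15Ab to 64683 for RpL41, which encodes a very short basic peptide of the large subunit. RpL39, which lines the peptide exit tunnel, followed at 35225 per kilobase. Near the lower end, above the low-level paralogs and assembly-factor relatives, stood RpLP0, the base of the stalk that recruits translation factors, at 922 per kilobase, RpS6, the phosphorylation target of S6 kinase, at 1145 and RpL26 at 1219. Because reads come from the 3′ end, division by transcript length can understate long transcripts, and these levels are an order within one assay.

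The first question of the design is whether losing 1 copy of a chromatin or autophagy gene changed ribosomal protein expression in the head. No ribosomal protein gene was called in any of the 4 comparisons with WT by limma, where a call needs an adjusted p below 0.05 together with a 1.5-fold difference. Among all 9588 genes the share called was 0.0939% for ASH1L/+, 0.0521% for WDFY3/+, 0.188% for CHD2/+ and 0.271% for CHD8/+. At an unadjusted p under 0.05, 2 members were higher in ASH1L/+ (background 1.44% of genes), 0 in WDFY3/+ (1.31%), 5 in CHD2/+ (4.2%) and 0 in CHD8/+ (2.68%), and none were lower in any genotype (background 1.17%, 1.95%, 2.72% and 1.06%). With the replicate number as a block, 0 were again called. The counts of higher members were then 6 in ASH1L/+ (3.91% of all genes), 4 in WDFY3/+ (3.31%) and 0 in CHD8/+ (5.99%). In CHD2/+, whose numbers were not treated as pairs, the blocked count was 23 (10.4%). Their median log2 difference was 0.09 in ASH1L/+, 0.18 in WDFY3/+ and -0.00 in CHD8/+, beside 0.03, 0.01 and -0.01 for all genes tested. In CHD2/+ it was 0.44 against -0.02. Leaving out 1 library moved these medians between -0.09 and 0.28 in ASH1L/+ (below 0 without its replicate 3), -0.04 and 0.41 in WDFY3/+ (below 0 without its replicate 3), -0.10 and 0.12 in CHD8/+, and 0.26 (without its replicate 3) and 0.59 in CHD2/+. Against the WT library of the same number, as a description that does not take them as pairs, the CHD2/+ median was 0.38, 0.29, 0.62 and 0.36 in replicates 1 to 4, above 0 in each. The summed level of 7 head neuron markers was also lower in CHD2/+ than in the WT library of each number, with 7886, 5877, 5342 and 8349 against 14008, 6952, 7005 and 12212. Haemocyte markers were lower in each number too. Cuticle and trachea markers were higher in each (1489, 2776, 1596 and 1231 against 762, 624, 971 and 866). So were mitochondrial ribosomal proteins (5374, 9571, 10781 and 5309 against 4415, 4451, 5540 and 4768). The part of these differences in the ribosomal protein values was not tested. Members above WT numbered 49 in ASH1L/+ (53.3% of all genes), 69 in WDFY3/+ (51.3%), 66 in CHD2/+ (48.4%) and 40 in CHD8/+ (48.8%). Members whose 4 mutant libraries all exceeded the 4 WT libraries numbered 0 in ASH1L/+ (background 0.793%), 3 in WDFY3/+ (1.27%; sta, RpL26 and RpL8), 7 in CHD2/+ (3.39%) and 1 in CHD8/+ (1.91%; RpS21).

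The members with the smallest p in CHD2/+ were RpL37A, RpS21 and RpLP2. RpL37A encodes a small zinc-finger protein of the large subunit. Its normalized counts were 5517, 4261, 5333 and 4715 in WT and 11172, 11335, 15912 and 8064 in CHD2/+ (replicates 1 to 4). The 2 groups did not overlap, and the log2 difference was 1.19 ± 0.36 (SE), with an adjusted p of 0.401 in limma. RpS21 is a small protein of the small subunit. Its counts were 6505, 5716, 8066 and 6027 in WT and 12201, 17372, 28670 and 10673 in CHD2/+, again without overlap, with a log2 difference of 1.29 ± 0.53 and a limma adjusted p of 0.648. RpLP2, an acidic stalk protein, measured 5021, 4521, 4091 and 4136 in WT and 9162, 11666, 12886 and 5040 in CHD2/+, where replicate 4 was only just above the highest WT library (log2 difference 1.04 ± 0.46, limma adjusted p 0.67). The other 4 genes that did not overlap in CHD2/+ were RpL14, RpL13A, RpS27 and RpL40, the last encoding a fusion of ubiquitin with a large-subunit protein, and their log2 differences were 0.70, 0.57, 0.63 and 0.53.

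In ASH1L/+ the same 2 genes, RpS21 and RpLP2, had the smallest p, and a single library carried much of the difference. RpS21 measured 7339, 10676, 65101 and 8837 in ASH1L/+ and RpLP2 measured 6259, 7057, 31424 and 4403. In both genes replicate 3 was far above the other 3 libraries. The log2 differences from WT were 1.16 ± 0.53 and 1.00 ± 0.46 (limma adjusted p 0.999 for each). Without that library they were 0.44 and 0.39. In WDFY3/+ the smallest p belonged to RpL39, RpL8 and sta. RpL8, a core protein of the peptidyl transferase region, measured 1743, 1966, 2053 and 1745 in WT and 2228, 2307, 4537 and 2590 in WDFY3/+, with a log2 difference of 0.57 ± 0.33 (limma adjusted p 1). sta measured 2597, 3011, 2761 and 2791 in WT and 3542, 3059, 4705 and 4806 in WDFY3/+, a log2 difference of 0.51 ± 0.29 (limma adjusted p 1). In CHD8/+ the smallest p were those of RpS15Ab, RpL22 and RpL39, with log2 differences of 0.70 ± 0.37, -0.60 ± 0.38 and 1.56 ± 1.15 and a limma adjusted p of 0.998 for each. Without CHD8/+ replicate 1 the RpS15Ab difference was 0.37, and without CHD8/+ replicate 3 that of RpL22 was -0.26.

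The RpL39 differences rested on 1 WT library. Its counts were 3481, 6233, 5844 and 89.1 in WT, while the other 16 libraries spanned 1879 to 60135. WT replicate 4 was thus far below every other library for this gene, and without it the log2 differences of ASH1L/+, WDFY3/+ and CHD8/+ were 0.79, 0.58 and 0.11 in place of 2.24, 2.04 and 1.56. The same library was the lowest of all 20 for RpL29 (281) and had 31075 of RpL41, above the other 3 WT libraries (3799 to 6555). RpL12 and RpL39 lie next to each other on chromosome arm 2R, and whether reads were assigned by strand is not given in the sources used here.

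RpL32 is the reference against which the study normalized its quantitative PCR, so its stability was examined. It measured 2325, 2780, 3251 and 3042 in WT, 2071, 3799, 7726 and 3184 in ASH1L/+ and 2322, 3564, 6945 and 3917 in WDFY3/+. In CHD2/+ it measured 3033, 5290, 8622 and 3658 and in CHD8/+ 2753, 2602, 2203 and 3733. Replicate 3 was the highest library in WT, ASH1L/+, WDFY3/+ and CHD2/+, by a small margin in WT, and the lowest in CHD8/+. None of the genotype differences passed the test (log2 0.40, 0.45, 0.75 and -0.03, each with SE 0.40, and limma adjusted p 0.999, 1, 0.711 and 0.998). Without replicate 3 of the genotype concerned the first 3 of these fell to 0.05, 0.17 and 0.46. Across the 20 libraries, on the scale as deposited, its coefficient of variation was 48.6%, and 55 of the 80 ribosomal protein genes had a lower one. The part of the scaling in this spread was not tested, and the replicate 3 rise of RpL32 was not called under equal totals or quantile normalization. The least variable was RpS30, at 19.5%, and the most variable RpL29, at 160%. RpS6 varied by 21.0% and RpL26 by 19.5%.

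**Figure D2:**
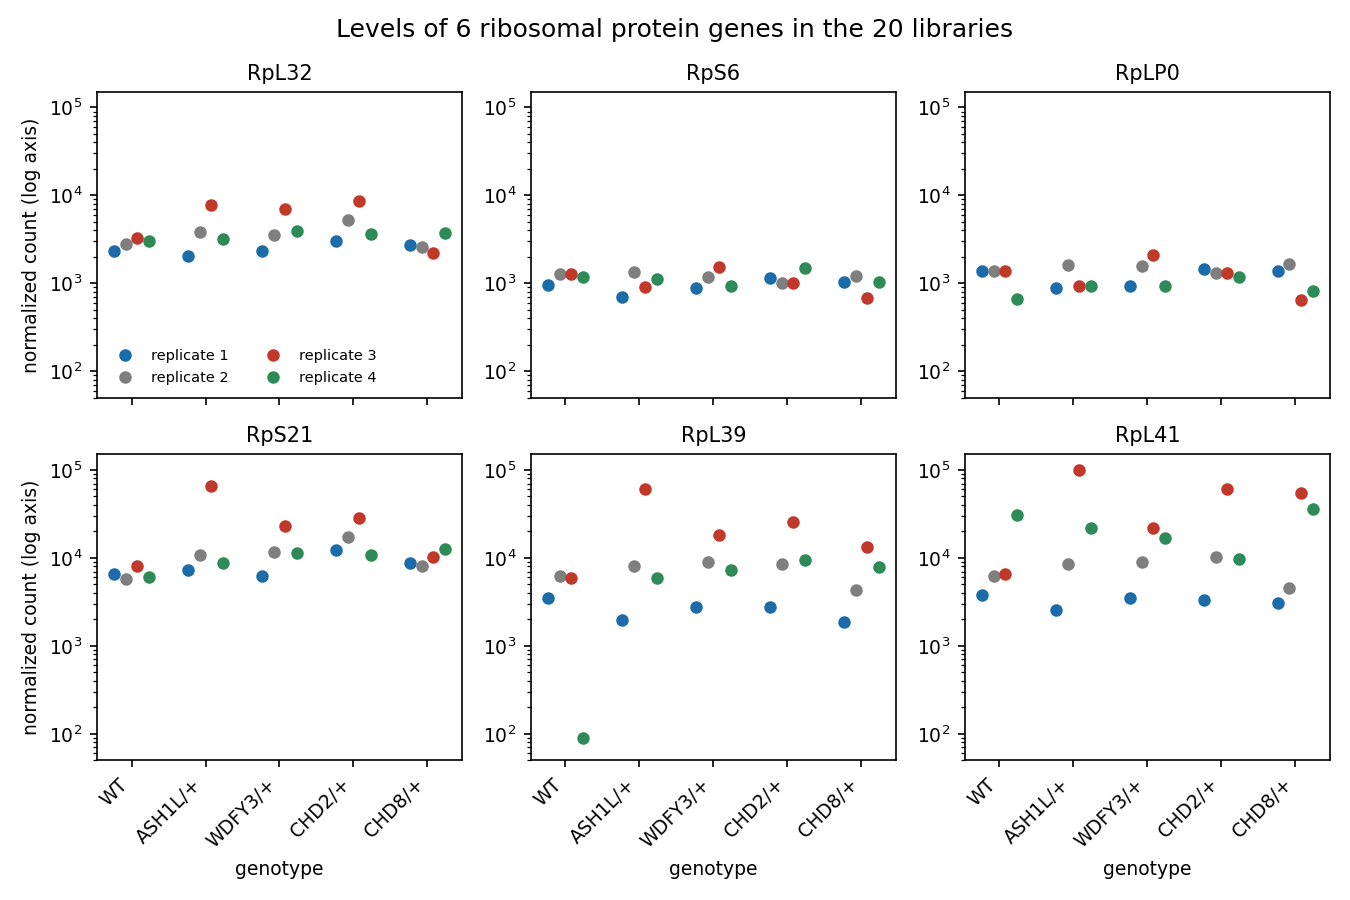
Normalized counts (log axis) of 6 ribosomal protein genes in the 20 libraries, by genotype; each point is a library and the color gives the replicate number. RpS6 and RpLP0 stayed within 2.27-fold and 3.23-fold between their extremes, whereas RpL41 spanned 39.0-fold and RpL39 675-fold, the latter through WT replicate 4 at 89.1.

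The libraries carry replicate numbers from 1 to 4 in the labels, and the members were compared by number with genotype as a covariate. The 4 comparisons by number use the same 20 libraries and are not independent of each other. They take a number as shared by every genotype, CHD2/+ included, although its numbers were not treated as pairs with WT. In replicate 1, 28 of 80 members were called lower and 0 higher, beside 16.4% of all genes called lower and 23.5% higher. In replicate 3, 34 members were called higher and 0 lower, beside 14% of all genes called higher and 15.5% lower. Members were thus called in a single direction in each, in 35% and 42.5% of cases, where other genes were called in both directions. In replicate 2 no member was called, and no gene at all (0%); 2 members, RpLP0 and RpL34a, were higher at an unadjusted p under 0.05 (background 6.45%). In replicate 4, 3 members were called, RpS13 higher and RpL21 and RpLP0-like lower, beside 2.59% of all genes called higher and 7.13% called lower. The median log2 difference of the members was -0.50 in replicate 1 and 0.46 in replicate 3. Large and small subunits had nearly equal medians, -0.51 and -0.49 in replicate 1 and 0.49 and 0.46 in replicate 3.

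**Figure D3:**
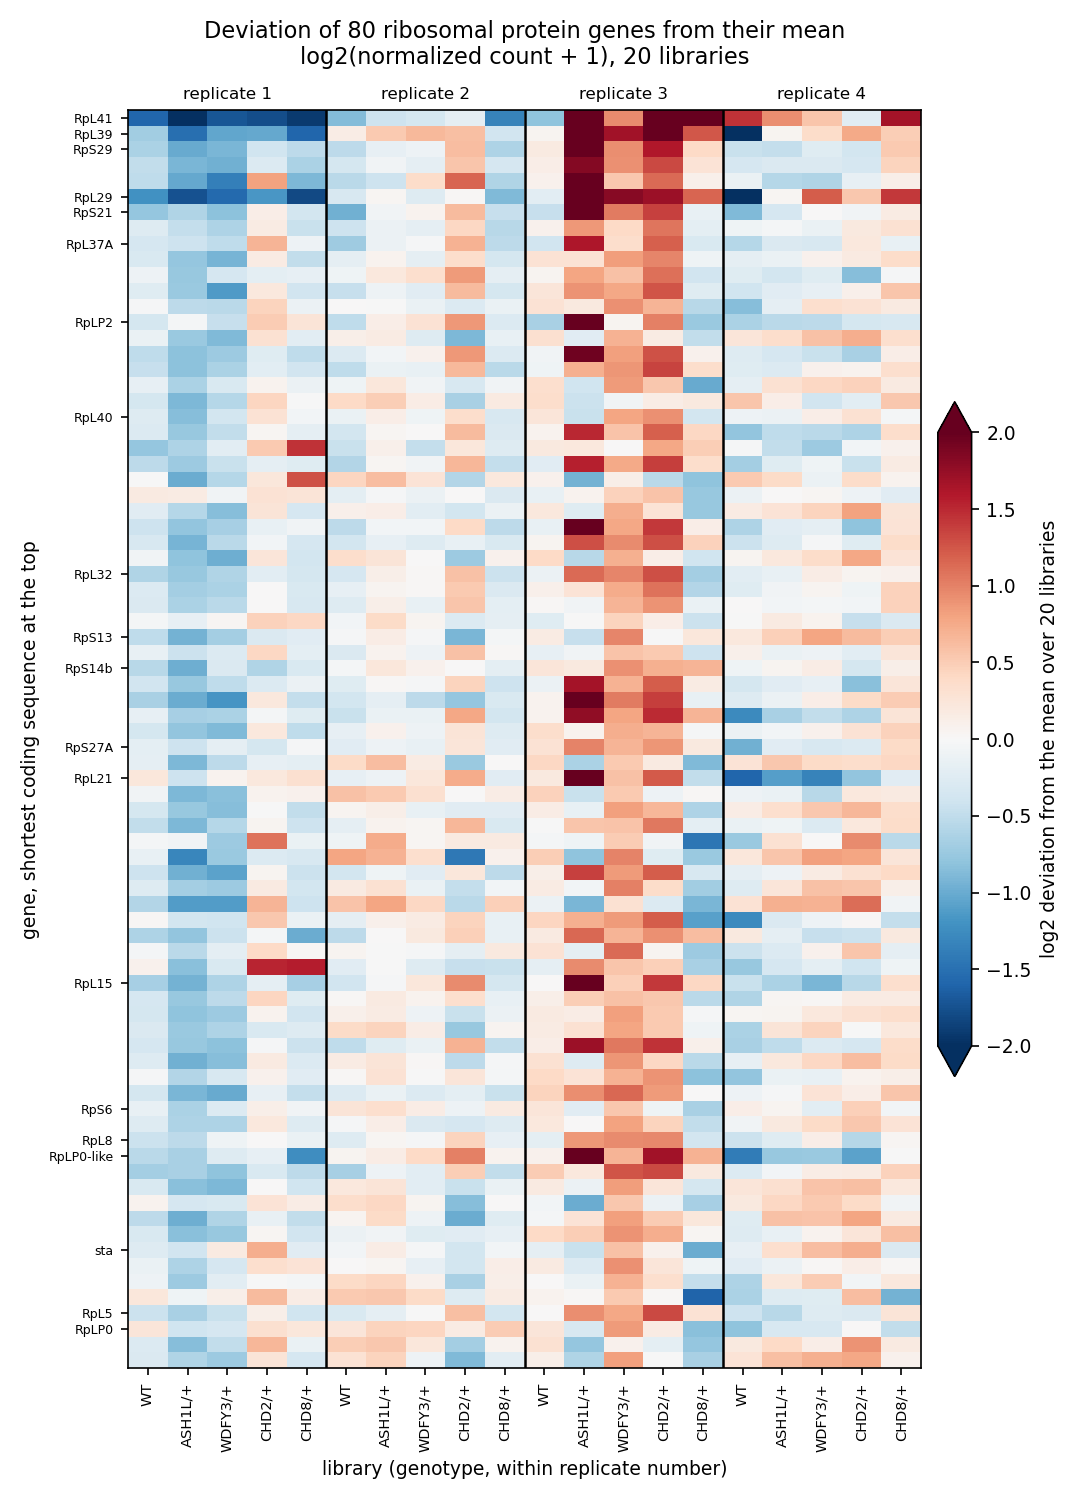
Deviation of log2(normalized count + 1) from the gene's mean over 20 libraries (color, clipped at 2 in either direction) for the 80 tested ribosomal protein genes, sorted by coding length with the shortest at the top; columns are libraries grouped by replicate number, and the row names are given for genes described in the text. Replicate 1 libraries were mostly below the mean, CHD2/+ less so, and replicate 3 libraries of ASH1L/+, WDFY3/+ and CHD2/+ mostly above it, most strongly in the shortest genes.

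Whether the calls stayed in a single direction depended on which scaling was used. Under TMM scaling, which uses a trimmed mean of log ratios, both directions were kept. There 0 members were called higher and 34 lower in replicate 1, and 35 higher and 0 lower in replicate 3. Of all genes, 40.2% and 29.6% were called either way. Equal totals kept the single direction in replicate 1 only, and quantile normalization in neither. When every library was set to the same total, the median of the members in replicate 3 fell to 0.07 while that of all genes stood at -0.43, and 17 members were called higher and 5 lower, beside 5.56% and 32.7% of all genes. Under quantile normalization it was 0.02 against -0.00 for all genes, with 10 called higher and 1 lower, beside 13.1% and 14.0% of all genes. For replicate 1 the calls were 0 higher and 18 lower with equal totals (24.6% and 13.6% of all genes), and 1 higher and 5 lower with quantile normalization (20.8% and 22.5%). The genes that fell out under both equal totals and quantile normalization included RpL32 in replicate 3. Its log2 difference was 0.70 ± 0.22, with a limma adjusted p of 0.0203 as deposited, 0.234 with equal totals and 0.211 with quantile normalization.

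The members called in replicate 3 with the greatest rise were RpL39, RpL29, RpL41, RpS29, RpLP0-like and RpL15. RpL41 measured 3799, 2587, 3496, 3354 and 3031 in the replicate 1 libraries of WT, ASH1L/+, WDFY3/+, CHD2/+ and CHD8/+, all below the other 15 libraries. In replicate 3 it measured 6555, 100855, 22049, 59988 and 54294, so the WT library did not share the rise. The log2 differences were -2.43 ± 0.43 for replicate 1 (limma adjusted p 0.000315) and 2.11 ± 0.43 for replicate 3 (0.0026). RpL29, a large-subunit protein that is not essential in yeast, measured 761, 527, 599, 784 and 503 in replicate 1 and 1521, 24416, 6235, 5766 and 3956 in replicate 3. Its log2 differences were -1.99 ± 0.46 (limma adjusted p 0.00225) and 2.21 ± 0.46 (0.00275). For RpL39 the replicate 3 values were 5844, 60135, 18074, 25643 and 13409, a log2 difference of 2.29 ± 0.63 (limma adjusted p 0.0114). Replicate 3 of RpS29, a zinc-binding protein of the small subunit, measured 19754, 77228, 33468, 53386 and 23178, a log2 difference of 1.40 ± 0.27 (limma adjusted p 0.0021). Its 5 replicate 1 values were 11303, 8762, 9274, 13349 and 12253, all below those of replicate 3. RpLP0-like rose by a log2 of 1.38 ± 0.26 from a low level (a mean of 76.5 over the 20 libraries), and RpL15 by 1.30 ± 0.29 (limma adjusted p 0.00198 and 0.00427).

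Among the members called in replicate 1, the largest falls after RpL41 and RpL29 were those of RpS29, RpS28b, RpL15 and RpL24, with log2 differences of -0.92, -0.87, -0.82 and -0.82. RpL39 had a larger difference, -1.56 ± 0.63, that did not pass the test (limma adjusted p 0.0527). The ubiquitin-fusion, stalk and regulatory members differed among themselves. RpS27A, which encodes a ubiquitin fusion of the small subunit, rose in replicate 3 by a log2 of 0.80 ± 0.18 (limma adjusted p 0.00391), while RpL40, the fusion of the large subunit, had 0.30 ± 0.18 (0.193). The stalk genes RpLP0, RpLP1 and RpLP2 had 0.02, 0.40 and 0.52, RpS6 had -0.05 and sta had -0.25, none past the test. In replicate 4, RpL21 measured 3142, 4407, 3756, 5476 and 8052, below the other libraries of the same genotype except in CHD8/+, where replicate 3 had 6761 (log2 -1.35 ± 0.33, limma adjusted p 0.0186). RpS13 measured 9352, 11236, 13966, 12493 and 11399 in replicate 4, a log2 difference of 0.69 ± 0.21 (limma adjusted p 0.0395). No member was called in replicate 4 without the WT libraries, or without replicate 4 of WT, ASH1L/+, WDFY3/+ or CHD2/+.

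The calls by number differed with coding length. The limit of 300 coding nucleotides was chosen after the values had been seen. The 10 members with a shorter coding sequence (RpL29, RpL37-1, RpL37A, RpL38, RpL39, RpL41, RpS21, RpS27, RpS28b and RpS29) were all called higher in replicate 3, with a median log2 difference of 1.18. Other genes of that length, 326 in number, were called higher in 49.7% of cases, with a median of 0.84. From there up to 600 nucleotides 16 of 45 members (35.6%, median 0.43) and 39.3% of the other genes (median 0.58) were called higher. Above this and up to 900 nucleotides it was 8 of 22 members (36.4%, median 0.41) against 27.6% (0.32), and above 900 nucleotides 0 of 3 against 5.55%. In replicate 1, members called lower numbered 5 of 10 up to 300 nucleotides (45.4% of other genes of that length), 13 of 45 up to 600 (35.5%), 10 of 22 up to 900 (28.2%) and 0 of 3 above that (9.97%). The 10 short members held 13.8% to 16.0% of the ribosomal protein counts in the replicate 1 libraries (median 14.8%) and 16.2% to 36.2% in those of replicate 3 (median 25.8%), which did not overlap. The medians were 16.6% in replicate 2 and 18.3% in replicate 4. In the same lengths the CHD2/+ medians were 0.86, 0.43 and 0.24 for members and 0.47, 0.42 and 0.28 for other genes. The part of insert length or RNA quality in these differences was not tested.

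**Figure D4:**
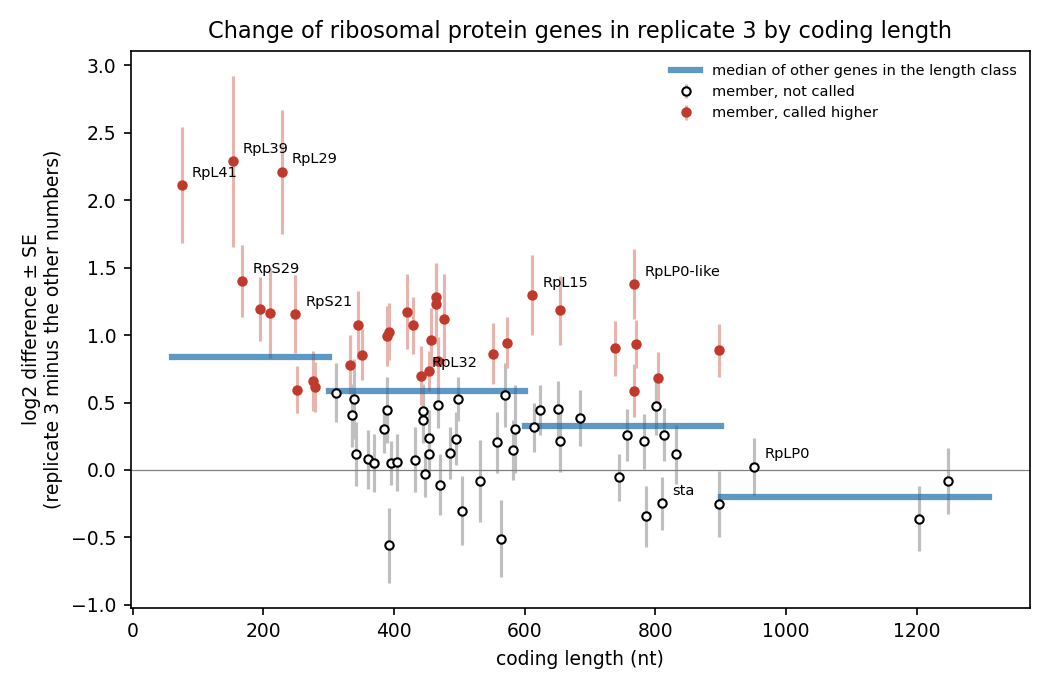
Log2 difference of replicate 3 from the other numbers (vertical axis, ± SE) against coding length (nucleotides) for the 80 tested ribosomal protein genes; red points were called higher, and blue lines give the median of all other genes in 4 length classes (0.84, 0.58, 0.32 and -0.20). All 10 members of at most 300 nucleotides were called, and the 3 members above 900 nucleotides lay near 0 or below.

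Other lists of translation genes were called in the same comparisons, beside 23.5% of all genes higher and 16.4% lower in replicate 1. In replicate 3 the shares of all genes were 14% higher and 15.5% lower. These lists, like the members, were drawn up with earlier results of these data known. Of 71 mitochondrial ribosomal protein genes, which serve a separate ribosome, 32 were called lower and 1 higher in replicate 1 (median -0.57) and 38 higher and 0 lower in replicate 3 (median 0.67). Of 38 translation factors, 7 were lower and 5 higher in replicate 1, in both directions as among all genes. There eIF4B and eIF4G1, which act in mRNA recruitment to the ribosome, rose by log2 1.13 and 1.16, opposite to the ribosomal proteins. In replicate 3, 3 of the 38 were higher and 1 lower, among them eEF1delta, an elongation factor subunit, at 1.09 ± 0.22 (limma adjusted p 0.00257). Of 45 ribosome assembly genes, 10 were higher and 10 lower in replicate 1, and 10 higher and 1 lower in replicate 3. Of 21 growth-signalling genes, 8 were higher and 2 lower in replicate 1, and 2 higher and 7 lower in replicate 3; rictor and raptor, partners of the Tor kinase, rose by log2 1.43 and 0.82 in replicate 1.

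In replicates 1 and 3, the median of the head neuron markers moved the opposite way to that of the ribosomal proteins. Of 7 such genes, 4 were called higher in replicate 1 (median log2 0.97), beside 23.5% of all genes. In replicate 3, 4 were lower and 1 higher (median -0.83), beside 15.5% and 14% of all genes. Their summed level, a mean of 13313 in replicate 1 and 7368 in replicate 3, was 7886 to 16073 in the replicate 1 libraries and 5342 to 9465 in those of replicate 3. Replicate 4 did not show this contrast. There the neuron sum (mean 11636) and the ribosomal protein share (mean 12.7%) were both above the means of the 20 libraries (10048 and 11.8%). No marker gene of the list was at 0 in any library. Other marker sums differed between replicates 1 and 3 too. The mean was 665 in replicate 1 and 257 in replicate 3 for haemocytes, and 1997 and 2876 for glia. It was 116187 and 158001 for photoreceptors and eye, 21934 and 37049 for muscle, 171794 and 251987 for fat body, and 1484 and 2313 for cuticle and trachea. The cuticle and trachea medians were 1489 and 1596, and CHD8/+ replicate 3, at 6193, raised the replicate 3 mean. In all of these other sums except that of haemocytes, the libraries of replicates 1 and 3 overlapped. The part of a different tissue make-up in the ribosomal protein values was not tested.

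In the comparisons with WT, 0 of the 71 mitochondrial ribosomal proteins, 38 translation factors, 45 assembly genes and 21 growth-signalling genes were called in any genotype. The closest was Nopp140, a nucleolar chaperone of snoRNPs, with log2 differences between 1.42 (WDFY3/+) and 1.77 (ASH1L/+), each with SE 0.37, and limma adjusted p of 0.0712, 0.324, 0.0563 and 0.127 for ASH1L/+, WDFY3/+, CHD2/+ and CHD8/+. Nopp140 had a low level, with a median of 34.2 normalized counts over the 20 libraries (range 6.45 to 78.4). The 4 comparisons share their WT libraries.

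Several ribosomal proteins have a second gene, and in each pair measured here, except RpS14, 1 copy held most of the counts. RpS14a and RpS14b, adjacent on the X chromosome and nearly identical, so that reads may be split between them, took a mean share of 53.4% ± 7.48 (SD, n = 20) for RpS14a. Only RpS14b was called, lower in replicate 1 (log2 -0.73 ± 0.15, limma adjusted p 0.000975) and higher in replicate 3 (0.73 ± 0.15, 0.00258), while RpS14a had -0.17 and 0.12. RpL34a supplied 3.69% to 17.9% of the RpL34 counts, the highest value in CHD8/+ replicate 3, and RpS15Ab 0.117% to 0.900% of those of RpS15A. Germ-line paralogs were close to absent: RpS5b, an ovary-enriched copy, had at most 5.83 normalized counts in the 20 libraries and RpL22-like, known from the male germ line, at most 7.52. Together with RpL10Aa, RpL37-2, RpS10a, RpS19b, RpS28-like and RpS28a, these are the 8 members under the filter, and RpS28-like was listed at 0 in all 20 libraries. RpL24-like, RpL7-like and RpLP0-like, relatives of yeast proteins that act in ribosome assembly rather than in the finished ribosome, stood at 5.26%, 2.25% and 6.07% of the summed level with their ribosomal namesakes. All 3 were called lower in replicate 1 and higher in replicate 3. The remaining 5 members, RpL19, RpL27A, RpL31, RpS10b and RpS12, carry identifiers that do not occur in the 5 tables and were not analysed there.

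In the double heterozygote the ribosomal proteins made up 15.2%, 10.7% and 13.3% of the library totals, within the range of the other 20 libraries. These sums include RpL19, RpL27A, RpL31 and RpS10b, which are not listed for the other 20 libraries. For the 80 tested genes alone the shares were 14.4%, 10.2% and 12.8%, again within that range (5.96% to 17.6%). Over the genes listed in both tables the shares were 14.7%, 10.4% and 13.1%, against 9.63% to 20.3%. The genes inside that total were distributed otherwise. Head markers were present: the 7 photoreceptor and eye genes took 2.78%, 2.38% and 2.69% of the total (1.496% to 3.197% in the 20 libraries) and the 7 neuron genes 0.147%, 0.337% and 0.364% (0.0860% to 0.371%). RpL32 took 0.185%, 0.153% and 0.162% of the library total, all above the range of 0.0384% to 0.139% in the 20 libraries. These totals cover 12623 listed genes in the double heterozygote and 17559 in the 20 libraries. Shares of single genes were not recomputed over the 12476 genes listed in both. For the members together, that restriction raised ASH1L/+ replicate 1 from 5.96% to 9.63%. A small separation, such as that of RpL32, is therefore not established. On these unequal totals the 3 libraries lay above all 20 for 25 of 80 members (background 16.6% of 8960 genes compared). They lay below all 20 for 2, RpL10 and RpL5 (background 4.21%). RpL8 took 0.363%, 0.282% and 0.692% against 0.0303% to 0.0800%. RpS6 had 0.0991%, 0.0698% and 0.0952% against 0.0107% to 0.0369%, and RpLP0 0.0963%, 0.0780% and 0.159% against 0.0109% to 0.0395%.

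Taken as shares of the ribosomal protein total of the 80 genes, 27 members were above all 20 libraries in the double heterozygote, 11 below all 20, and 42 overlapped. This measure is defined within the members only, so no share of all genes stands beside these counts. By share of the library total, taken over unlike gene sets, 16.6% of the 8960 genes compared lay above all 20 libraries and 4.21% below. Separation between the tables was thus not limited to the members. The gene with the greatest ratio was RpL8, whose median share was 2.76% against 0.415%, a ratio of 6.65. RpL23 (2.98% against 0.494%) and RpL18 (1.08% against 0.193%) followed among the well-expressed genes, the former with a ratio of 6.03. In the other direction RpL5, which binds the 5S ribosomal RNA, had a median of 1.40% against 3.64%. Genes with a low share in the 20 libraries were thus higher, and genes with a high share lower: the interquartile range of the log2 shares was 0.74 ± 0.25 (SD, n = 3) in the double heterozygote and 2.13 ± 0.29 (n = 20) in the rest. The order of the 80 genes had a median Spearman correlation of 0.92 among the 190 pairs of the 20 libraries, of 0.82 among the 3 pairs of the double heterozygote and of 0.42 across the 60 pairs between the tables; these are descriptions across genes that share libraries. Over the same 80 genes the large subunit held 61.3%, 59.1% and 61.5% of the ribosomal protein counts, against 52.3% to 58.7% in the 20 libraries, of which the highest was close to the lowest of the 3. RpL34a supplied 23.3% to 29.6% of the RpL34 counts and RpS14a 73.5% to 92.3% of the RpS14 counts, above all 20 libraries in both cases (3.69% to 17.9% and 35.0% to 69.9%). A scaling factor per library cancels in these shares. Genotype cannot be told apart from whatever else differs between the tables, such as separate preparation, sequencing or quantification.

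**Figure D5:**
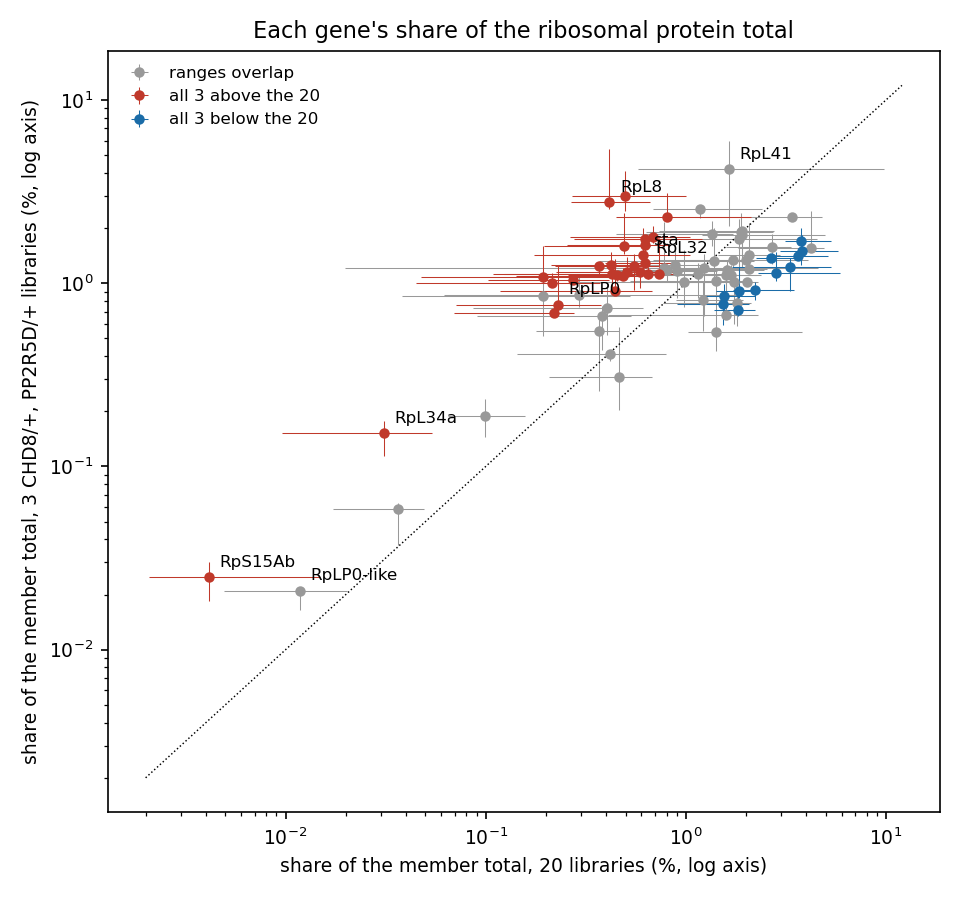
Each gene's share of the ribosomal protein total (percent, log axes) in the 3 libraries of the double heterozygote (vertical) against the 20 other libraries (horizontal); points are medians, bars run from the lowest to the highest library, and the dotted line marks equal shares. Red genes (27) lay above all 20 libraries, blue genes (11) below, and the red ones cluster at low shares in the 20 libraries. No share of all genes exists for this measure.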

How the data were processed

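RNA was sequenced as 3′ mRNA libraries; per the labels and methods, the authors quantified reads with Salmon 0.12.0 on BDGP6 and normalized with DESeq2. The deposited values are a signal, namely normalized counts that are not whole numbers; 42.2% to 83.8% of low values per library fell within 5% of a whole multiple, so reads were not recovered and no count test was run. Symbols were matched for 17253 identifiers, and arms and lengths come from the BDGP6.54 annotation. Members and lists were chosen with earlier results of these data known. log2(value + 1) was fitted with limma 3.58.1 (R 4.3.3) with a variance trend over 9588 genes, with Benjamini-Hochberg adjustment over all of them and all 20 libraries in each fit; the code was tested on simulated data. The labels call the replicates biological without saying what was separate, so p-values measure the spread between these libraries.

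Genes named are RpL32, the members called (at most 6 in each direction), the 3 smallest p per genotype, paralogs, extremes and special roles. In checking replicate numbers, deviations from the group mean were correlated between mutant and WT libraries of the same number. The values were 0.34 to 0.78 for ASH1L/+, 0.32 to 0.74 for WDFY3/+ and 0.21 to 0.73 for CHD8/+, whose numbers were treated as pairs. They were 0.07 to 0.46 for CHD2/+, which was not treated as paired. Apart from replicate 2 (0.07), the CHD2/+ values (0.28 to 0.46) lay within the CHD8/+ range. Libraries of different numbers were not compared, so pairing itself was not tested. Alternatives changed the filter, pseudocount, scaling, trend, libraries and replicate block. Results for 1 withheld gene are not reported here by name.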

Additional observations from a re-analysis of the deposited data

Results flagged for a closer look

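Dixon's test was applied to 85 groups of 4 libraries, 80 from 16 ribosomal protein genes in 5 genotypes and 5 from their share of the library total, and 11 had a library far outside the other 3. For independent groups chance gives about 1 in 20, but these genes were chosen partly for extreme values and share libraries, so the count cannot be read against it. ASH1L/+ replicate 3 accounted for 8 of them, each high: RpS21 at 65101 normalized counts (others 7339 to 10676), RpL37A at 21466, RpLP2 at 31424, RpL39 at 60135, RpL29 at 24416, RpS29 at 77228, RpL21 at 59471 and RpLP0-like at 255. This library also had the highest total of all. The others were RpL8 in WDFY3/+ replicate 3 at 4537, RpL41 in WT replicate 4 at 31075 and RpL41 in CHD2/+ replicate 3 at 59988.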

How the results depend on the processing

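The count of ribosomal protein genes called against WT was 0 in every genotype under all alternatives run, including the replicate block, under which the unadjusted p was below 0.05 for 23 of 80 members of CHD2/+ in place of 5 (10.4% of all genes in place of 4.2%), with a smallest adjusted p of 0.0586. With equal totals the members called were 18, 22 and 6 for replicates 1, 3 and 4 (38.2%, 38.3% and 12.5% of all genes), and the median log2 change of the members, replicate 3 minus the other numbers, was 0.0677; with quantile normalization they were 6, 11 and 7 (43.3%, 27.1% and 7.1%), and the median 0.0210. Without the WT libraries 0 were called in replicate 4 (2% of all genes). Leaving out 1 library at a time gave 11 to 35 in replicate 1 (11 without ASH1L/+ replicate 1, 13 without WDFY3/+ replicate 1; 29.8% to 42% of all genes), 25 to 42 in replicate 3 (18.3% to 34.2%) and 0 to 6 in replicate 4 (2.58% to 20.7%). Leaving out CHD2/+ replicate 1 and CHD8/+ replicates 3 and 4 together, an alternative chosen after seeing the data, gave 10 in replicate 4 (23.7%). RpL32 in CHD8/+ changed sign as libraries were left out (log2 -0.17 to 0.0806), and RpL22 in CHD8/+ with those 3 left out (0.11). Over genes listed in both tables the share of library total was 12.8% in WT and 12.4% in CHD8/+; without the 10 highest genes it was 12.9% in WT, 17.1% in CHD2/+ and 12.6% in CHD8/+. The causes were not tested. Sequencing depth was not recoverable and no interval for counting error could be given.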
